A study of Homo sapiens with 8 samples.

Results

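The autophagy genes were described in MM.1S cells, a human multiple myeloma cell line, as a set of 44 genes listed by name. They cover the machinery that builds an autophagosome, the cargo receptors that fill it, the TFEB family of transcription factors and 2 lysosomal membrane proteins. All 44 were found among 60671 gene IDs, and 43 passed the filter of a mean of at least 1 TPM in any group. TPM gives the share of a sample's transcripts that a gene contributes, corrected for the length of the gene. The missing gene was MAP1LC3A, an ATG8 homologue, which reached at most 0.31 TPM. Cells were wild type and were collected after 12 h with vehicle, with FeAc (the iron supplement, 300 μM against vehicle), with bortezomib or with bortezomib plus FeAc. The dose of bortezomib, and of FeAc beside it, is not given in the sources used here. Each group had 2 samples, which the study's methods name as biological replicates of 1 cell line. Bortezomib inhibits the proteasome and is a standard drug in myeloma.

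In macroautophagy, the ULK1 kinase complex starts a membrane, the class III PI3-kinase complex marks it with phosphoinositide, and lipid transfer proteins make it grow. A conjugation system then attaches ATG8 proteins, the LC3 and GABARAP families, to the lipid of that membrane. Receptors such as p62 bind ubiquitinated cargo with one end and ATG8 proteins with the other, so that aggregates and organelles are enclosed and handed to the lysosome. TFEB, TFE3 and MITF drive lysosomal and autophagy genes when they enter the nucleus. Myeloma cells secrete large amounts of immunoglobulin, and both the proteasome and autophagy clear their misfolded protein.

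The promoters of the 4 genes with the smallest adjusted p in bortezomib against vehicle are shown with that of LAMP1, the promoter of the set richest in E-box cores and that of a gene that was not called. LAMP1 was chosen for this after its sequence was seen. The sequences are RefSeq windows of 300 bases (GRCh38.p14), from 250 before to 50 after the RefSeq start, all on the + strand, at chr5:179806143-179806442 for SQSTM1, chr12:10212627-10212926 for GABARAPL1, chr17:48830785-48831084 for CALCOCO2, chr16:87392086-87392385 for MAP1LC3B and chr13:113296989-113297288 for LAMP1. The RefSeq starts of GABARAPL1, CALCOCO2 and MAP1LC3B lie inside the gene bounds given with their values. Capitals mark the letters of 2 short motifs on either strand, the E-box core CACGTG that TFEB family proteins can bind and the antioxidant response core TGACNNNGC that NRF2 can bind.
SQSTM1: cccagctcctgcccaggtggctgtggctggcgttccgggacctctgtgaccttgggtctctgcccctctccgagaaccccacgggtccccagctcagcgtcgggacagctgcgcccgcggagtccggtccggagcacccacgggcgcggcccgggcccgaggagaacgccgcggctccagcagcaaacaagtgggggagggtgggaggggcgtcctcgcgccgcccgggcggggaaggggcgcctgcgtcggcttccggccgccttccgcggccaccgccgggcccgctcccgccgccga
GABARAPL1: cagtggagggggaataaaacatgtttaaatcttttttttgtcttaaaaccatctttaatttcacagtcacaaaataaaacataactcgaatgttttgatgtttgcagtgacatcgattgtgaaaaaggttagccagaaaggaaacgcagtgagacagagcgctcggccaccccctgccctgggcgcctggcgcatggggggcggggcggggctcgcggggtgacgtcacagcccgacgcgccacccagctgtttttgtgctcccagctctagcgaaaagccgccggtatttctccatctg
CALCOCO2: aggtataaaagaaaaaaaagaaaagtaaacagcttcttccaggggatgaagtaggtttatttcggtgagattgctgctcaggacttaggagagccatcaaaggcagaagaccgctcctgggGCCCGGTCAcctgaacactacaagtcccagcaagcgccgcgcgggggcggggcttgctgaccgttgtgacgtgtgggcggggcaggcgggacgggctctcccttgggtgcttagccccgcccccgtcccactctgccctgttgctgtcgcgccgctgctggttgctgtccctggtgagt
MAP1LC3B: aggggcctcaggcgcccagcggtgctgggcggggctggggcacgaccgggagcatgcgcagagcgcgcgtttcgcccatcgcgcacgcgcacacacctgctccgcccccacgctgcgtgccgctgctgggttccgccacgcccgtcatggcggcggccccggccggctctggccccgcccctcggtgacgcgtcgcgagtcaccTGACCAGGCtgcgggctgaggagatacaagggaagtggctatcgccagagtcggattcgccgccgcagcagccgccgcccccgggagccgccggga
LAMP1: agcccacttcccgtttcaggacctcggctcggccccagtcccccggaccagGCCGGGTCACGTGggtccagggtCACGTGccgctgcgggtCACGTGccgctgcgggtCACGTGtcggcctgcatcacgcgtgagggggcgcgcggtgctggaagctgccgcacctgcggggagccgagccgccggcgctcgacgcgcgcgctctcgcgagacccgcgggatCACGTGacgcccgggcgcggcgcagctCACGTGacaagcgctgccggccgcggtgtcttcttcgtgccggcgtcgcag
The windows of SQSTM1 and GABARAPL1 held neither motif, those of CALCOCO2 and MAP1LC3B held 1 antioxidant response core each, and that of LAMP1 held 6 E-box cores and 1 antioxidant response core that overlaps the first of them. A window was matched for 39 of the 44 genes. The E-box core was present in 3 of these 39 (ATG14, ATG3 and LAMP1), or 7.69%, and in 7.43% of all 27305 windows. The antioxidant response core was present in 4 of 39 (ATG101, CALCOCO2, LAMP1 and MAP1LC3B), or 10.3%, and in 13.6% of all windows. The CHOP-ATF composite element TGATGCAAT, the CLEAR element and 2 forms of the heat shock element were in 0 of the 39 windows, against 0.264%, 0.381%, 0.487% and 0.487% of all windows. These are matches of letters in a short window and do not locate binding.

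All samples summed to between 994968 and 996780 TPM, and 13020 to 13770 genes reached 1 TPM in each. The values hold no read counts, so depth and counting error are unknown. Of 8 genes used to check the response to bortezomib, among them HSPA1A, 7 were higher in both bortezomib comparisons. The 9 plasma cell markers summed to between 3048 and 3183 TPM without bortezomib and between 1792 and 2483 with it. They did not move together, with 4 positive and 5 negative log2 fold changes against vehicle, and 1 and 8 against FeAc. In bortezomib against vehicle 1 of the 9, XBP1, was called lower, or 11.1%, against 5.89% of all genes. In bulk RNA, fewer cells of a type and less RNA per cell cannot be told apart. Markers of T and NK cells summed to at most 3.06 TPM and myeloid markers to at most 2.26, with CD3D and MPO at 0 in every sample. Stromal markers went from at most 2.44 TPM to between 5.92 and 8.87 with bortezomib, with 1 of 2 tested genes (COL1A1) called, and erythroid markers from at least 10.29 to at most 5.72. Their part in the results was not tested. Bortezomib plus FeAc replicate 1 stood apart, with 2.99% of TPM from mitochondrially encoded genes against 5.49% to 14.3% in the other samples. The groups with and without bortezomib were deposited in separate tables, so that drug and table cannot be told apart.

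Bortezomib against vehicle addressed which parts of the autophagy system responded at the RNA level to proteasome inhibition. Of the 43 tested genes, 7 rose (SQSTM1, GABARAPL1, CALCOCO2, MAP1LC3B, ULK1, ATG4A and TFE3), or 16.3%, against a background of 6.27% of all 14812 tested genes called higher. ATG4C fell, or 2.33%, against 5.89% of all genes called lower. Calls required a fold change over 1.5 together with an adjusted p below 0.05 in 1 limma-trend fit of the 8 samples on log2(TPM + 1), with p-values adjusted over all tested genes. At an unadjusted p under 0.05, 16 were higher and 2 lower, or 37.2% and 4.65%, against 13.3% and 16.9% of all genes. The median log2 fold change of the 43 was 0.32, and that of all genes was -0.06.

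In cells that also had FeAc, bortezomib plus FeAc against FeAc gave 6 genes higher (SQSTM1, GABARAPL1, CALCOCO2, MAP1LC3B, ATG4A and RB1CC1), or 14.0%, against 4.94% of all genes. ATG4C and WIPI1 were lower, or 4.65%, against 8.86% of all genes. The median log2 fold change was 0.11 for the 43 genes and -0.17 for all genes. Median-of-ratios scaling moved the median of all genes up by 0.17. With it, the share of all calls that were higher went from 35.8% to 57.2%. It called 9 of the 43 autophagy genes higher and 0 lower, against 1084 higher and 812 lower of all 14812 tested genes. Leaving out bortezomib plus FeAc replicate 1 left 3 higher and 0 lower in this comparison, and 9 higher and 1 lower in bortezomib against vehicle.

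**Figure D1:**
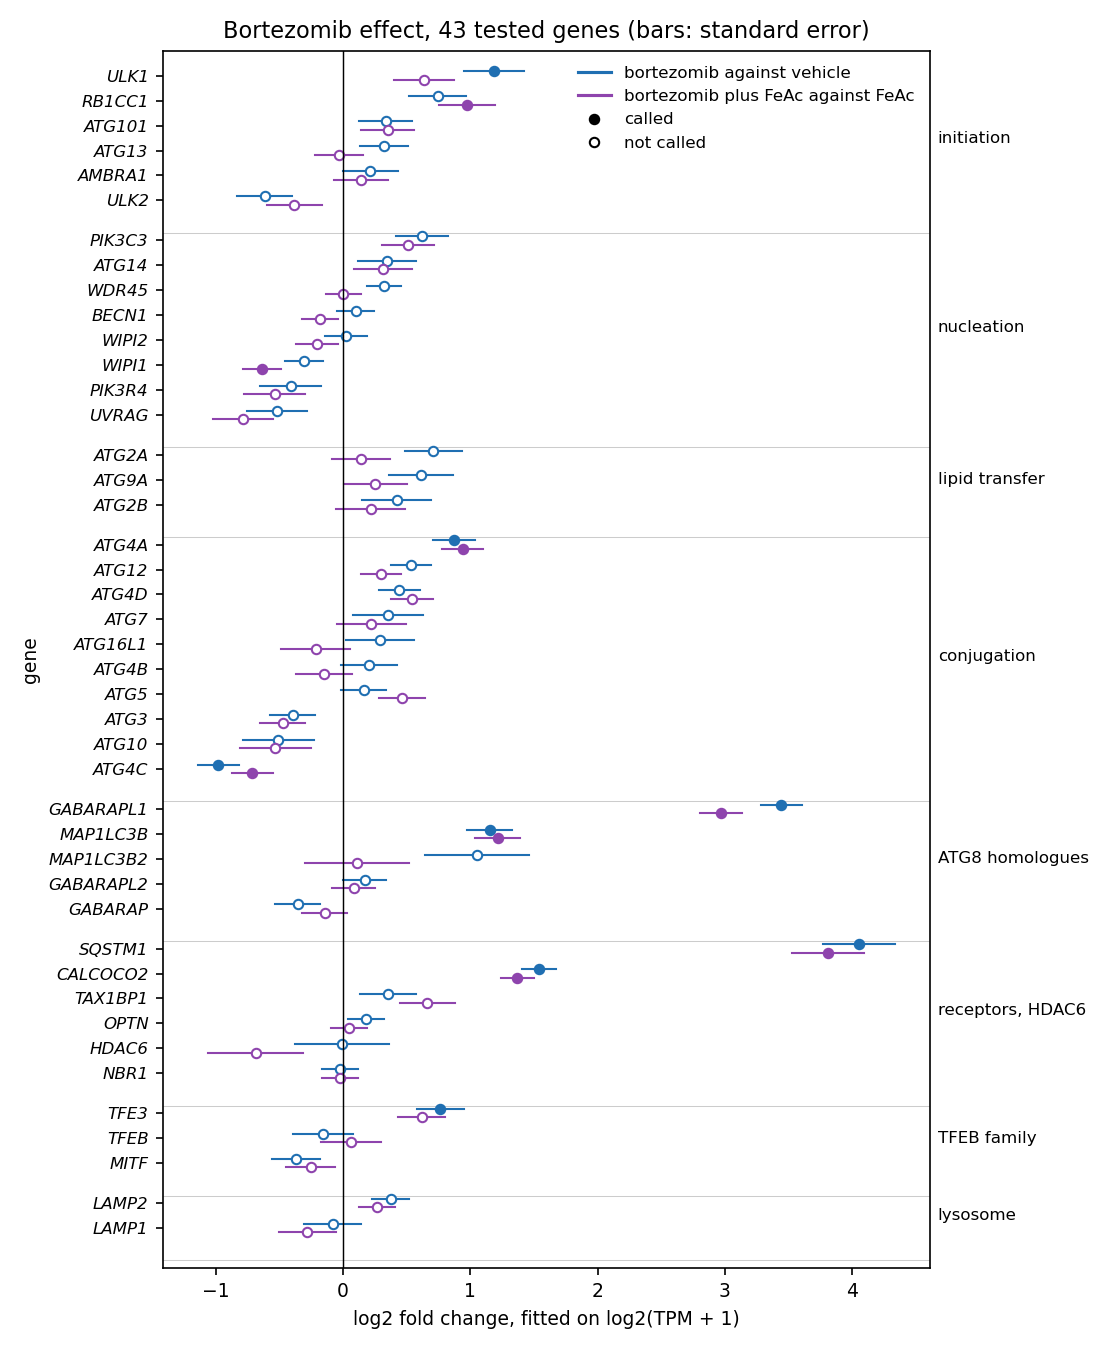
Fitted log2 fold change of the 43 tested autophagy genes by role, for bortezomib against vehicle and for bortezomib plus FeAc against FeAc, with bars of 1 standard error and filled circles for called genes. SQSTM1 (4.06 and 3.81) and GABARAPL1 (3.45 and 2.97) lie apart from the other genes, most of which sit within 1 log2 unit of 0.

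Across all 8 samples, 13 of the 43 genes were higher in each of the 4 samples with bortezomib than in every sample without it, or 30.2%, against 13.1% of all tested genes. Another 7 (ATG10, ATG3, ATG4C, PIK3R4, ULK2, UVRAG and WIPI1) were lower in each of the 4, or 16.3%, against 23.3% of all tested genes. The remaining 23 overlapped. Of the 13 higher genes, ATG12, ATG14, ATG4D, LAMP2 and PIK3C3 were called in neither bortezomib comparison.

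SQSTM1 encodes p62, the receptor that gathers ubiquitinated proteins into bodies and links them to ATG8 proteins. The gene (ENSG00000161011) lies on the + strand at chr5:179806398-179838078 (GRCh38, GENCODE 29). SQSTM1 measured 247.47 and 229.26 TPM with vehicle, 312.15 and 311.91 with FeAc, 4382.77 and 3616.23 with bortezomib, and 5968.28 and 3222.07 with bortezomib plus FeAc. The groups with and without bortezomib did not overlap, and the widest spread was between the samples of bortezomib plus FeAc. The ratio of mean TPM was 16.8 for bortezomib against vehicle (log2 fold change 4.06, SE 0.28, limma adjusted p = 0.00127) and 14.7 for bortezomib plus FeAc against FeAc (3.81, SE 0.28, adjusted p = 0.00166). Both calls held in all 16 alternatives, with log2 fold changes of at least 3.92 and at least 3.36.

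SQSTM1 thereby came to dominate the RNA of the set. It ranked between 368 and 497 among all genes by TPM without bortezomib and between 15 and 33 with it. Its share of the TPM of the 44 genes was 15.4% to 19.6% in samples without bortezomib and 67.0% to 79.7% in samples with it. The other 43 genes together summed to between 1264.3 and 1333.8 TPM without bortezomib and between 1516.6 and 1605.9 with it.

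SQSTM1 overlaps MRNIP, a gene on the opposite strand that encodes a protein of DNA repair, over 1582 exonic bases or 20.7% of its own exonic length. MRNIP was chosen for mention after its values were seen. It measured 13.72 and 16.28 TPM with vehicle, 25.16 and 15.03 with FeAc, 122.82 and 122.89 with bortezomib, and 157.03 and 132.38 with bortezomib plus FeAc. Its log2 fold changes were 2.96 (SE 0.23, adjusted p = 0.00166) and 2.83 (SE 0.23, adjusted p = 0.00258). Whether counting used the strand is not given in the sources used here, so reads of the shared bases may have been assigned to either gene.

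CALCOCO2 encodes NDP52, a receptor that brings ubiquitin-coated bacteria and damaged mitochondria to LC3. The gene is at chr17:48830988-48866522 on the + strand. CALCOCO2 measured 41.46 and 44.60 TPM with vehicle, 44.37 and 46.71 with FeAc, 125.03 and 128.74 with bortezomib, and 125.63 and 113.17 with bortezomib plus FeAc. The lowest sample with bortezomib was well above the highest without it. Its log2 fold change was 1.54 (SE 0.13, adjusted p = 0.00166) against vehicle and 1.37 (SE 0.13, adjusted p = 0.00384) against FeAc, and the second call was lost without FeAc replicate 1 (adjusted p = 0.0529).

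The other receptors did not follow SQSTM1 and CALCOCO2 past the thresholds. NBR1, which works beside p62 in aggregate clearance, measured 34.61 and 33.83 TPM with vehicle, 32.57 and 34.20 with FeAc, 34.82 and 32.31 with bortezomib, and 35.42 and 30.21 with bortezomib plus FeAc. The 8 values of NBR1 overlapped across the groups, with a log2 fold change of -0.03 (SE 0.14, adjusted p = 0.924) against vehicle. OPTN, a receptor for mitochondria and bacteria, lay between 43.39 and 56.36 TPM in all samples and was not called. TAX1BP1, which helps to recruit the ULK complex to cargo, had log2 fold changes of 0.35 (adjusted p = 0.313) and 0.66 (adjusted p = 0.0803). HDAC6, the deacetylase that carries ubiquitinated protein to the aggresome, had -0.01 and -0.69 with the widest error among the receptors (SE 0.37). Of the 6 genes of this group, 2 rose and 0 fell in each bortezomib comparison, or 33.3% higher, against 6.27% of all genes in the first and 4.94% in the second.

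**Figure D2:**
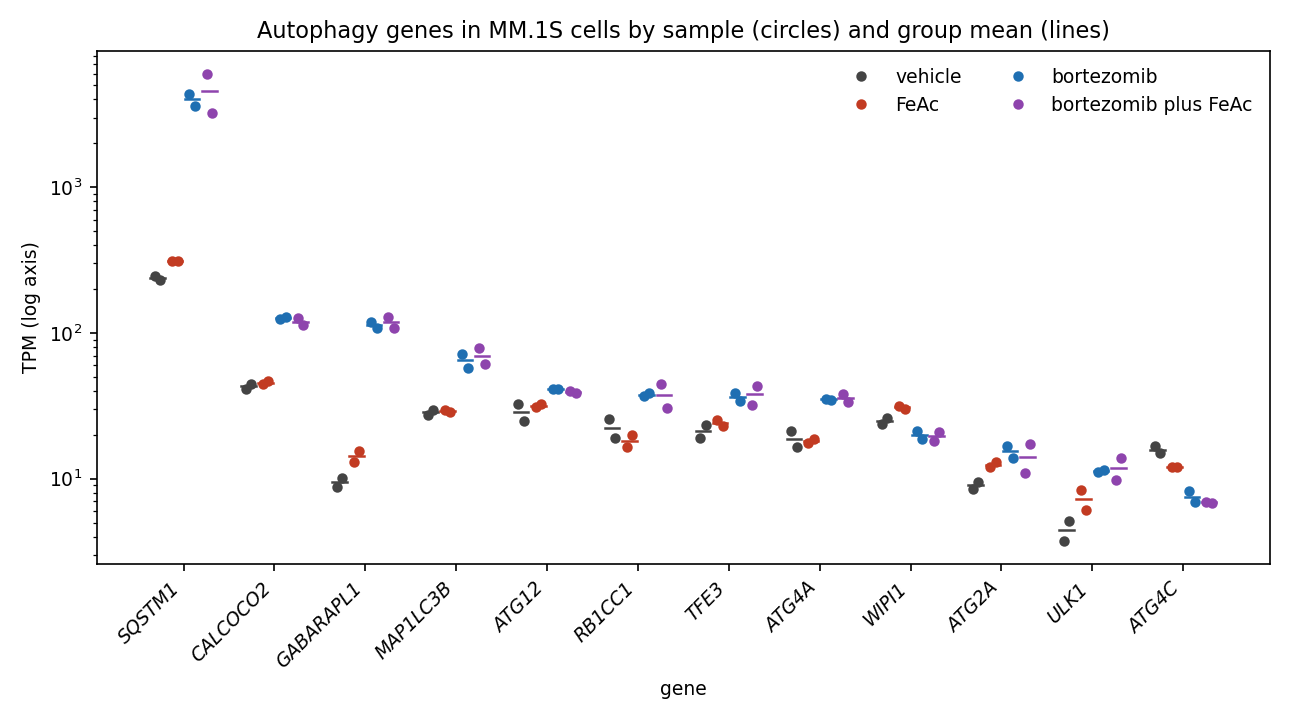
TPM on a log axis of the 12 autophagy genes described in full, with 1 circle for each of the 2 samples of a group and a line at the group mean. SQSTM1, GABARAPL1, CALCOCO2, MAP1LC3B, ULK1, RB1CC1, ATG4A, ATG12 and TFE3 stood higher in all 4 samples with bortezomib than in the 4 without it. ATG4C and WIPI1 stood lower, and ATG2A overlapped.

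Among the ATG8 homologues, GABARAPL1 moved the most. The gene, which encodes a GABARAP-like protein with roles in autophagosome closure and receptor binding, lies at chr12:10212458-10223130 on the + strand. GABARAPL1 measured 8.79 and 10.19 TPM with vehicle, 12.97 and 15.49 with FeAc, 119.09 and 107.31 with bortezomib, and 129.07 and 108.04 with bortezomib plus FeAc. The groups with and without bortezomib were far apart, and both FeAc samples were above both vehicle samples. The ratio of mean TPM was 11.9 for bortezomib against vehicle (log2 fold change 3.45, SE 0.16, adjusted p = 0.000378) and 8.33 in the presence of FeAc (2.97, SE 0.16, adjusted p = 0.000549). Both calls held in all 16 alternatives. The GABARAPL1 transcript is 95.5% identical to GABARAPL3, a pseudogene, over 354 bases, and GABARAPL3 was listed at no more than 0.04 TPM in any sample.

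MAP1LC3B encodes LC3B, the ATG8 protein most often used to mark autophagosomes, and lies at chr16:87383995-87404779 on the + strand. MAP1LC3B measured 27.28 and 29.77 TPM with vehicle, 29.81 and 28.62 with FeAc, 72.09 and 57.86 with bortezomib, and 78.51 and 60.84 with bortezomib plus FeAc. The samples with bortezomib were all above those without it. Its log2 fold changes were 1.15 (SE 0.18, adjusted p = 0.00899) and 1.21 (SE 0.18, adjusted p = 0.0101). The call against vehicle was lost when vehicle replicate 1 or either bortezomib sample was left out, and the call against FeAc was lost in fits of the 2 groups alone and without either FeAc sample or without bortezomib plus FeAc replicate 1. MAP1LC3B2, whose transcript is 98.0% identical to that of MAP1LC3B over 597 bases, stayed between 0.32 and 2.92 TPM and was not called, and the split of reads between these copies is uncertain.

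GABARAP and GABARAPL2, the most abundant ATG8 homologues of untreated cells, were not called. GABARAP measured 252.88 and 233.88 TPM with vehicle, 257.04 and 205.30 with FeAc, 204.64 and 175.70 with bortezomib, and 187.35 and 230.01 with bortezomib plus FeAc, with log2 fold changes of -0.36 (SE 0.18, adjusted p = 0.223) and -0.15 (adjusted p = 0.613). GABARAPL2 lay between 40.58 and 55.22 TPM in all samples. The summed TPM of the 6 homologues was at most 341.3 without bortezomib and at least 388.9 with it. Within this sum GABARAPL1 went from the fourth place, behind GABARAP, GABARAPL2 and MAP1LC3B, to the second place behind GABARAP in all 4 samples with bortezomib.

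**Figure D3:**
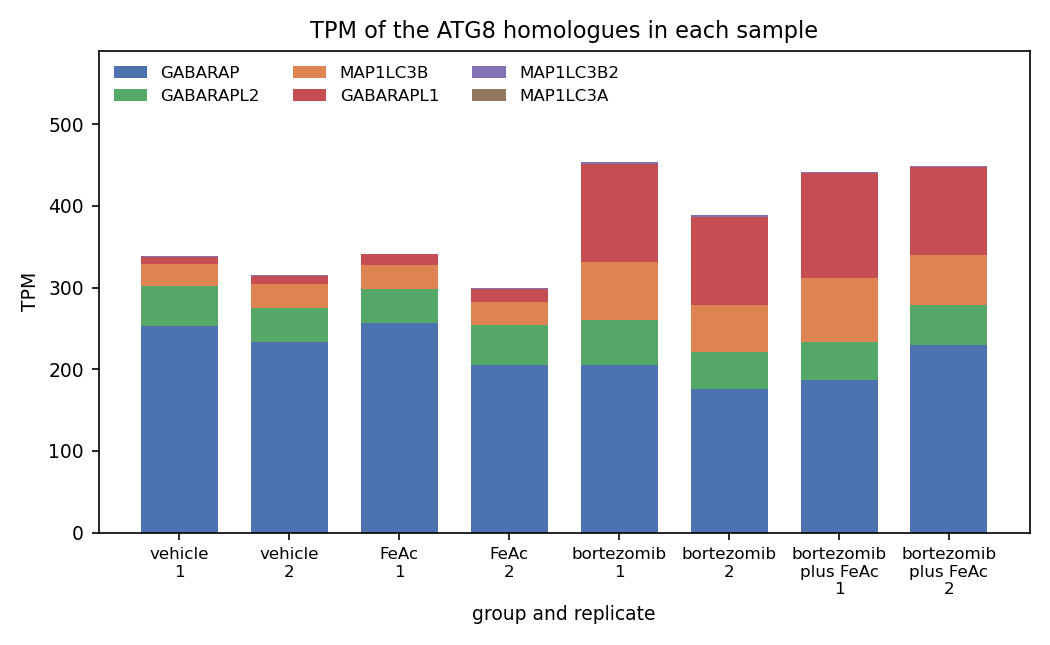
TPM of the 6 ATG8 homologues stacked in each of the 8 samples, on an axis that starts at 0. GABARAP made up 68.4% to 75.3% of the bar in the 4 samples without bortezomib and 42.4% to 51.2% in the 4 with it, and GABARAPL1 went from 2.6% to 5.16% to 24.0% to 29.2%.

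The initiation complex showed 1 called gene of 6 in each bortezomib comparison, higher in both, or 16.7%. The share of all genes called higher was 6.27% against vehicle and 4.94% against FeAc. ULK1, the kinase that mTORC1 and AMPK regulate, lies at chr12:131894651-131923167. ULK1 measured 3.75 and 5.14 TPM with vehicle, 8.43 and 6.07 with FeAc, 11.11 and 11.46 with bortezomib, and 9.82 and 13.81 with bortezomib plus FeAc. It rose against vehicle (log2 fold change 1.19, SE 0.24, adjusted p = 0.0206) and was not called against FeAc (0.63, SE 0.24, adjusted p = 0.112), where the FeAc samples already lay above those of vehicle. The difference between these effects was not called (interaction log2 -0.55, SE 0.33, 95% interval -1.33 to 0.22). The call for ULK1 was lost without either vehicle sample, without FeAc replicate 2 and without either bortezomib sample.

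RB1CC1 encodes FIP200, the scaffold of the ULK complex. RB1CC1 measured 25.59 and 19.08 TPM with vehicle, 16.53 and 20.02 with FeAc, 36.77 and 38.67 with bortezomib, and 44.36 and 30.35 with bortezomib plus FeAc. All 4 values with bortezomib were above the 4 without it. The call stood against FeAc (log2 fold change 0.97, SE 0.22, adjusted p = 0.0317) and not against vehicle (0.74, SE 0.22, adjusted p = 0.0686), and it held in 7 of 16 alternatives, being lost without any 1 sample other than bortezomib plus FeAc replicate 2. ATG13, ATG101, AMBRA1 and ULK2, the other regulators of this step, had log2 fold changes between -0.62 (ULK2) and 0.34 (ATG101) against vehicle and were not called. ULK2 was at 2.43 to 2.73 TPM without bortezomib and 1.17 to 1.85 with it (adjusted p = 0.105 against vehicle).

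None of the 8 genes of the nucleation step was called in bortezomib against vehicle, with 2 higher (25.0%) and 0 lower at an unadjusted p under 0.05 in the limma fit, against 13.3% and 16.9% of all genes. PIK3C3, the lipid kinase of the complex, had a log2 fold change of 0.62 (SE 0.20, adjusted p = 0.0885), and its partner PIK3R4 had -0.41 (SE 0.24, adjusted p = 0.286). BECN1, the core adaptor and the most abundant of the group, lay between 51.74 and 66.20 TPM in all samples. UVRAG, ATG14, WDR45 and WIPI2 had log2 fold changes from -0.52 to 0.34 against vehicle.

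WIPI1, a phosphoinositide effector at chr17:68420948-68457513 on the - strand, measured 23.87 and 26.08 TPM with vehicle, 31.50 and 30.27 with FeAc, 21.30 and 18.76 with bortezomib, and 18.09 and 20.93 with bortezomib plus FeAc. The values with bortezomib were all below the others. WIPI1 fell against FeAc (log2 fold change -0.64, SE 0.15, adjusted p = 0.0330) and not past the threshold against vehicle (-0.31, SE 0.15, adjusted p = 0.212). This call held in 5 of 16 alternatives and was lost without any 1 sample other than bortezomib plus FeAc replicate 2. WIPI1 shares 24.3% of its exonic length with ARSG on the opposite strand.

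The 3 genes of lipid transfer were not called in either comparison. At an unadjusted p under 0.05 in the limma fit, 2 were higher against vehicle, or 66.7%, against 13.3% of all genes. Against FeAc 0 were higher, against 10.1% of all genes. ATG2A, which channels lipid from the endoplasmic reticulum to the growing membrane, measured 8.54 and 9.46 TPM with vehicle, 11.94 and 12.94 with FeAc, 16.87 and 13.90 with bortezomib, and 10.95 and 17.34 with bortezomib plus FeAc. Its values with bortezomib overlapped those with FeAc, and its log2 fold changes were 0.71 (SE 0.22, adjusted p = 0.0798) and 0.14 (adjusted p = 0.706). The first of these was called in fits of the 2 groups alone and with median-of-ratios scaling. The second of these turned to -0.17 without bortezomib plus FeAc replicate 2. ATG9A, the lipid scramblase of the seed vesicles, and ATG2B had 0.61 (adjusted p = 0.148) and 0.42 (adjusted p = 0.336) against vehicle.

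Of the 10 conjugation genes, ATG4A rose and ATG4C fell in both comparisons, and both encode proteases that trim ATG8 proteins. That is 10.0% higher and 10.0% lower each time. Of all genes, 6.27% were higher and 5.89% lower against vehicle, and 4.94% and 8.86% against FeAc. ATG4A (chrX:108091668-108154671) measured 21.14 and 16.53 TPM with vehicle, 17.49 and 18.69 with FeAc, 35.28 and 34.81 with bortezomib, and 37.90 and 33.46 with bortezomib plus FeAc. Its samples with bortezomib lay above all others (log2 fold changes 0.87, SE 0.16, adjusted p = 0.0163, and 0.94, SE 0.16, adjusted p = 0.0148). ATG4C (chr1:62784135-62865513) measured 16.68 and 15.00 TPM with vehicle, 12.01 and 11.95 with FeAc, 8.21 and 6.88 with bortezomib, and 6.96 and 6.86 with bortezomib plus FeAc. Its values fell by 0.98 on the log2 scale against vehicle (SE 0.16, adjusted p = 0.0109) and by 0.71 against FeAc (SE 0.16, adjusted p = 0.0295). The calls for ATG4A held in 12 and 10 of 16 alternatives and those for ATG4C in 13 and 6. Against vehicle, ATG4A was lost without vehicle replicate 2, FeAc replicate 2 or either bortezomib sample, and ATG4C without vehicle replicate 1 or either bortezomib sample. Against FeAc, ATG4A was lost without either FeAc sample, either bortezomib sample or bortezomib plus FeAc replicate 1, and ATG4C without any 1 sample other than bortezomib plus FeAc replicate 2.

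The 2 other proteases of this family, ATG4B and ATG4D, were not called, with 0.20 (adjusted p = 0.571) and 0.44 (adjusted p = 0.117) against vehicle. ATG12, the ubiquitin-like protein that joins ATG5, measured 32.34 and 24.86 TPM with vehicle, 30.90 and 32.53 with FeAc, 41.41 and 41.50 with bortezomib, and 39.79 and 38.47 with bortezomib plus FeAc. Its samples with bortezomib all lay above those without it, but its log2 fold changes of 0.53 (SE 0.16, adjusted p = 0.0655) and 0.29 (adjusted p = 0.237) did not pass the test. ATG3, the E2-like enzyme that hands ATG8 to lipid and the most abundant gene of the step, lay between 93.61 and 111.11 TPM without bortezomib and between 65.44 and 87.64 with it (-0.40, adjusted p = 0.178, and -0.47, adjusted p = 0.110). ATG5, ATG7, ATG10 and ATG16L1 were not called either, with values from -0.51 (ATG10) to 0.35 (ATG7) against vehicle.

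In the TFEB family, TFE3 was called against vehicle and TFEB and MITF were not. TFE3 (chrX:49028726-49043486, - strand) measured 18.96 and 23.19 TPM with vehicle, 25.40 and 22.82 with FeAc, 38.42 and 34.38 with bortezomib, and 32.25 and 43.46 with bortezomib plus FeAc. All samples with bortezomib were above all without it, with log2 fold changes of 0.77 (SE 0.19, adjusted p = 0.0388) and 0.62 (SE 0.19, adjusted p = 0.0662). The call held in 7 of 16 alternatives and was lost when any 1 sample of the vehicle, FeAc or bortezomib groups was left out. TFEB measured 9.05 and 11.98 TPM with vehicle, 9.37 and 8.80 with FeAc, 9.54 and 8.91 with bortezomib, and 12.01 and 7.53 with bortezomib plus FeAc, and these overlapped (-0.16, SE 0.23, adjusted p = 0.688, against vehicle). MITF was the lowest of the family at 2.57 to 4.72 TPM, with -0.37 (adjusted p = 0.228) against vehicle. These proteins are controlled largely by phosphorylation and entry into the nucleus, which RNA levels do not measure.

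The lysosomal membrane proteins LAMP1 and LAMP2 were not called. LAMP1 lay between 59.69 and 88.78 TPM in all samples, and the samples with and without bortezomib overlapped, although both FeAc samples (88.39 and 86.03) lay above both of bortezomib plus FeAc (59.69 and 85.72). LAMP2, whose splice forms serve chaperone-mediated autophagy and fusion, was at 32.01 to 38.08 TPM without bortezomib and at 41.37 to 49.05 with it, with log2 fold changes of 0.37 (SE 0.14, adjusted p = 0.129) and 0.27 (adjusted p = 0.242).

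FeAc against vehicle asked whether iron alone moved these genes. None of the 43 was called in either direction by limma, against 0.00675% of all genes called higher and 0.0% lower, and at an unadjusted p under 0.05 2 were higher and 1 lower, or 4.65% and 2.33%, against 2.49% and 0.925% of all genes. These were GABARAPL1 (log2 fold change 0.54, 95% interval 0.15 to 0.92), ULK1 (0.60, 0.05 to 1.15) and ATG4C (-0.37, -0.74 to -0.0032), each with an adjusted limma p of 0.951. SQSTM1 was higher in both FeAc samples, with a ratio of mean TPM of 1.31, and its interval included 0 (log2 0.39, -0.27 to 1.04). Both FeAc samples were above both vehicle samples for 12 of the 43 genes, or 27.9%, against 22.9% of all tested genes. They were below for 3, or 6.98%, against 10.1%. Over all genes, the study reported many more changed by FeAc in MM.1S cells, at the same thresholds, than this fit called. Its methods do not name the test.

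Adding FeAc to bortezomib gave no call among the 43 genes in limma, against 0.0% of all genes called in either direction. At an unadjusted limma p under 0.05 there were also 0 of the 43, against 1.2% of all genes higher and 1.32% lower. SQSTM1 had a log2 difference of 0.14 (95% interval -0.52 to 0.80), GABARAPL1 0.06 (-0.32 to 0.45), CALCOCO2 -0.09 (-0.39 to 0.22) and MAP1LC3B 0.10 (-0.31 to 0.51). Half-widths of these intervals ran from 0.31 to 0.95 over the 43 genes, with a median of 0.47, and the calls, adjusted over all genes, need larger effects than an unadjusted interval does. The interaction of bortezomib and FeAc was called for 0 of the 43 genes in limma, against 0.0% of all genes higher and 0.00675% lower. At an unadjusted limma p under 0.05 it again held 0 of the 43, against 0.77% of all genes higher and 1.58% lower. For GABARAPL1, whose ratio against vehicle was above that against FeAc, the interaction was -0.47 on the log2 scale (95% interval -1.01 to 0.07, limma adjusted p = 0.983).

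**Figure D4:**
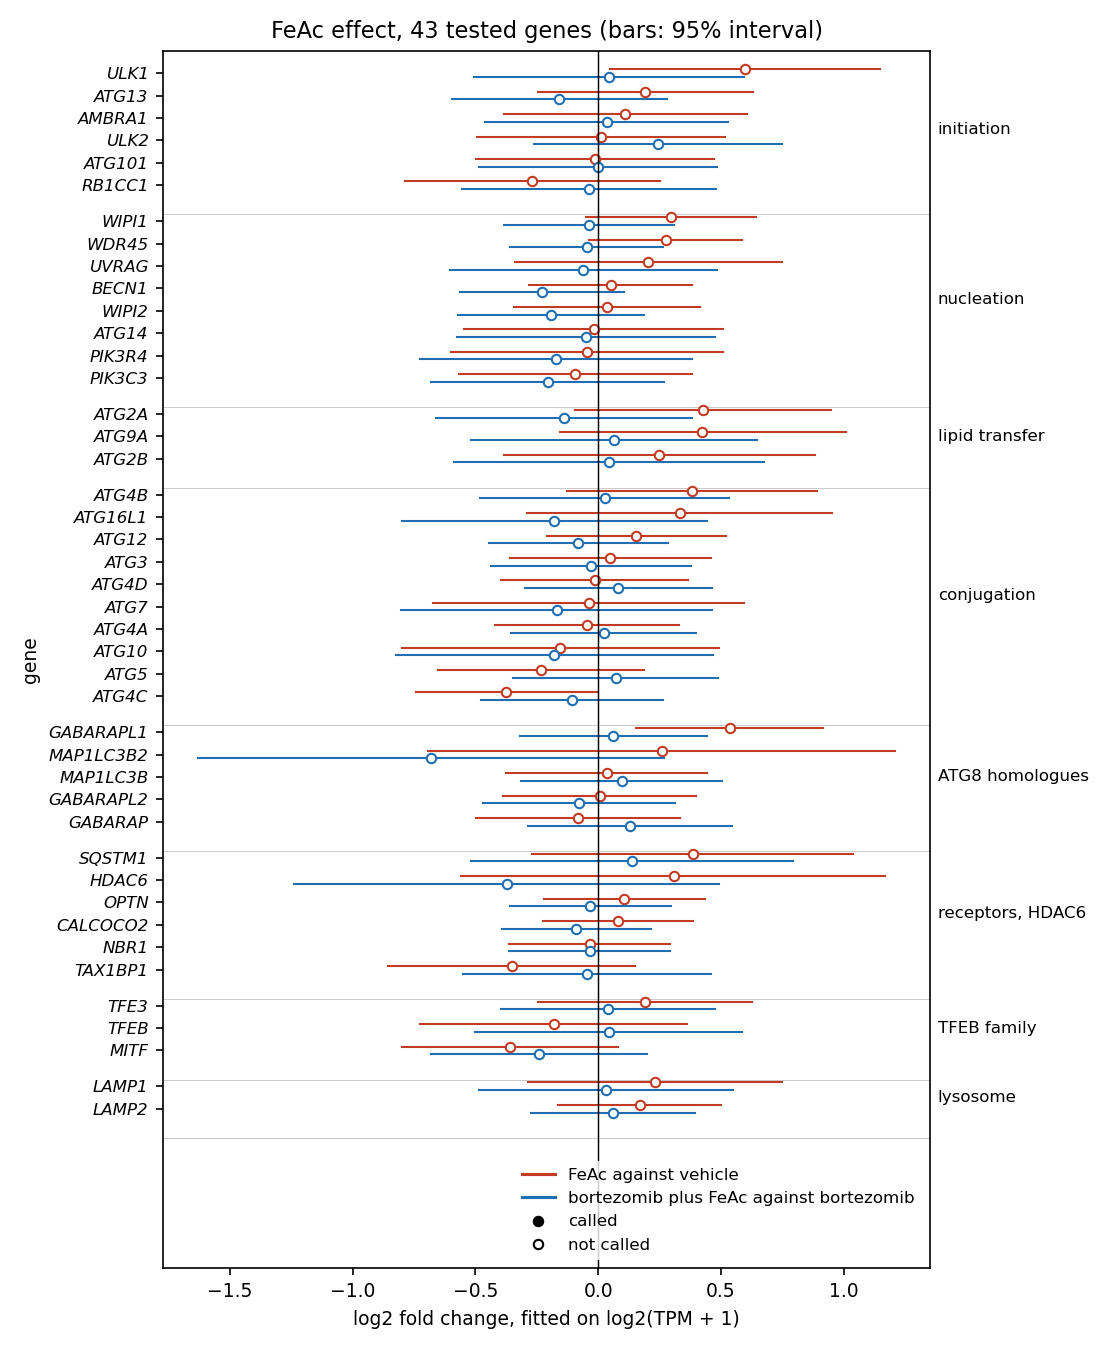
Fitted log2 fold change of the same 43 genes for FeAc against vehicle and for bortezomib plus FeAc against bortezomib, with 95% intervals. No gene was called in either comparison, and the intervals of GABARAPL1, ULK1 and ATG4C in FeAc against vehicle do not reach 0 before adjustment.

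The 5 further lists placed these genes in their pathway. Among 20 tested receptors outside the set, CCPG1, an endoplasmic reticulum autophagy receptor, rose against vehicle (log2 fold change 1.08, adjusted p = 0.0364) and against FeAc (1.33, adjusted p = 0.0211). STBD1, a glycogen-binding protein, rose against vehicle (0.65, adjusted p = 0.0455), and NIPSNAP2, a mitochondrial receptor, fell in both (-1.01, adjusted p = 0.0189, and -1.09, adjusted p = 0.0168). In all, 2 rose and 1 fell against vehicle, or 10.0% and 5.0%, against 6.27% and 5.89% of all genes. Against FeAc 2 rose and 3 fell, or 10.0% and 15.0%, against 4.94% and 8.86% of all genes. NCOA4, the receptor that takes ferritin to the lysosome and so releases its iron, measured 97.12 and 77.27 TPM with vehicle, 82.83 and 91.82 with FeAc, 77.59 and 82.13 with bortezomib, and 85.53 and 74.17 with bortezomib plus FeAc. The NCOA4 groups overlapped, with log2 fold changes of -0.12 (SE 0.16, adjusted p = 0.670) and -0.13 (adjusted p = 0.619).

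Of 29 tested genes of autophagosome formation and fusion outside the set, 1 rose and 1 fell against vehicle. These were ZFYVE1, which encodes the omegasome marker DFCP1 (0.92, adjusted p = 0.0322), and SNX18, a membrane-bending sorting nexin (-0.90, adjusted p = 0.0416). Against FeAc, 1 rose (VMP1, 0.67, adjusted p = 0.0348) and 2 fell (SNX18, -1.02, and EI24, -0.63, adjusted p = 0.0290 and 0.0456). Against vehicle 3.45% were called higher and 3.45% lower, against 6.27% and 5.89% of all genes. Against FeAc the shares were 3.45% and 6.9%, against 4.94% and 8.86%. At an unadjusted limma p under 0.05, 24.1% were higher and 6.9% lower against vehicle, against 13.3% and 16.9% of all genes. The same shares against FeAc were 10.3% and 10.3%, against 10.1% and 22.2%.

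Of 40 tested lysosomal proteins, 4 rose and 4 fell against vehicle, or 10.0% each way, against 6.27% and 5.89% of all genes, with a median log2 fold change of -0.06. GLA, the alpha-galactosidase (1.65, adjusted p = 0.00205), and CTSD, the aspartic protease cathepsin D (1.59, adjusted p = 0.00261), rose most, and PSAP and IDS were the other genes that rose. The cysteine proteases CTSH (-1.49, adjusted p = 0.00937) and CTSZ (-1.14, adjusted p = 0.0224) fell, as did FUCA1 and LIPA. CTSD measured 128.97 and 160.51 TPM with vehicle, 190.76 and 169.96 with FeAc, 444.33 and 427.38 with bortezomib, and 455.43 and 511.31 with bortezomib plus FeAc, without overlap. Against FeAc, 2 rose (GLA and CTSD) and 6 fell, or 5.0% and 15.0%, against 4.94% and 8.86% of all genes.

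Of 17 subunits of the V-ATPase, the proton pump that acidifies lysosomes, 4 rose and 0 fell against vehicle, or 23.5% higher against 6.27% of all genes, and 3 rose and 0 fell against FeAc, or 17.6% against 4.94%. ATP6V1A, its catalytic subunit, had the smallest p (1.56, SE 0.14, adjusted p = 0.00174, and 1.33, adjusted p = 0.00405). ATP6V1A measured 36.57 and 40.63 TPM with vehicle, 40.36 and 46.46 with FeAc, 116.39 and 115.47 with bortezomib, and 106.98 and 113.44 with bortezomib plus FeAc. ATP6V0A1 (1.94, adjusted p = 0.0138) and ATP6V0E1 (0.79, adjusted p = 0.0290) rose in both comparisons and ATP6V0E2 (0.60, adjusted p = 0.0433) against vehicle. The median of the 17 was 0.14, so most subunits lay near 0.

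Of 35 tested genes of mTORC1 and AMPK control, the nutrient switch that acts on ULK1 and TFEB, 4 rose and 1 fell against vehicle, or 11.4% and 2.86%, against 6.27% and 5.89% of all genes. Those that rose were AKT1S1 (0.95, adjusted p = 0.0108) and RPTOR (1.00, adjusted p = 0.0378), which encode a substrate inhibitor and the scaffold of mTORC1, and the stress-induced inhibitors SESN2 (1.66, adjusted p = 0.0145) and DDIT4 (1.97, adjusted p = 0.0343). SESN1, a relative of SESN2, fell (-0.73, adjusted p = 0.0174). Against FeAc 3 rose and 4 fell, or 8.57% and 11.4%, against 4.94% and 8.86% of all genes. Those that fell included DEPTOR (-1.34, adjusted p = 0.0282), another mTOR inhibitor.

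**Figure D5:**
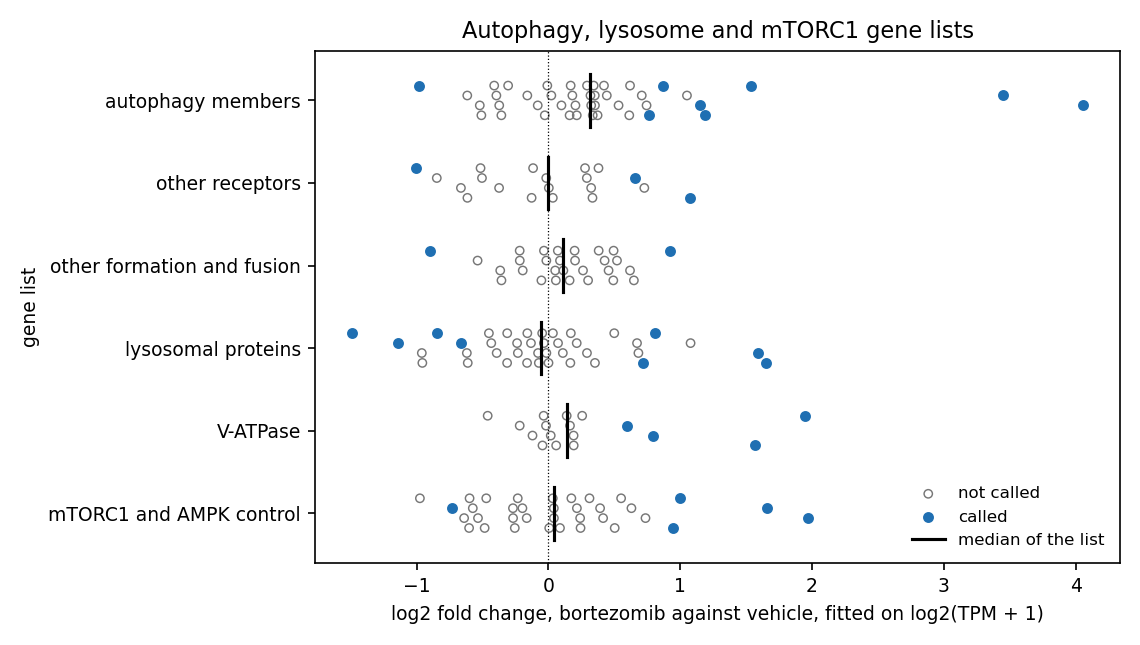
Fitted log2 fold change for bortezomib against vehicle of the autophagy genes and of 5 further gene lists, with 1 circle a gene, filled where the gene was called, and a line at the median of each list. Each further list holds called genes. The medians of the 5 further lists lie between -0.06 and 0.14, and that of the autophagy genes is 0.32.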

How the data were processed

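RNA was measured in 8 samples of MM.1S cells, 4 groups of 2. The deposited values are TPM per gene and sample, a unit read from column totals because the headers name none. The build GRCh38.p13 and the tools RSEM, StringTie, HISAT2, edgeR and DESeq2 are named in the notes of the submitters, with versions, roles and settings not given in the sources used. Both tables also hold columns made by the authors that were not used, namely mean TPM of each group, calls, p-values, ratios (fold changes) and the log2 fold changes, which the deposited headers name as the log2 of those ratios. The 2 tables were joined on 60671 shared gene IDs, of which 96.3% were in GENCODE 29, the source of positions.

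Genes with a group mean of at least 1 TPM in any group (14812) were fitted on log2(TPM + 1) by limma-trend (limma 3.58.1, R 4.3.3), with all 8 samples in 1 fit, 4 residual degrees of freedom and Benjamini-Hochberg adjustment over all genes of each of 5 comparisons. Fold changes are on that scale, which understates changes of low genes, and calls used the study's thresholds. The test was checked on simulated data for bortezomib against vehicle. It called 17 of 67 genes made to change 1.5-fold, 47 of 67 changed 2-fold and 63 of 66 changed 4-fold. Of 14612 unchanged genes, 5 were called. The simulated spread depended only on mean expression and was the same in all groups. In the real samples, the median absolute log2 difference of replicates was 0.164 with bortezomib and 0.313 with bortezomib plus FeAc. The simulated counts may therefore overstate how well the test does on the real genes. Genes called in any comparison were described in full and the set was filled to 12 by the smallest adjusted p in bortezomib against vehicle. Genes of further lists were named by smallest adjusted p in each direction, up to 4 and 2 a list, and genes called only against FeAc and the sample values of CTSD and ATP6V1A were added after their values were seen. The members, lists and thresholds were chosen with earlier results of these data known. Transcripts were aligned with Biopython 1.88. Alternatives were another pseudocount (0.1), other filters, fits of 2 groups, a replicate block, other scalings, other thresholds and leaving out each sample.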

Additional observations from a re-analysis of the deposited data

How the results depend on the processing

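The calls of SQSTM1 and GABARAPL1 in both bortezomib comparisons and of CALCOCO2 against vehicle held in all 16 alternatives run for each gene. Requiring a fold change over 2 left 0 genes lower in bortezomib against vehicle and 0 lower in bortezomib plus FeAc against FeAc. In the latter, fits of the 2 groups alone left 3 higher and 0 lower, and 0 were lower without the filter on low values or with median-of-ratios scaling. These fits have fewer samples, and the cause of the other changes was not tested. Leaving out 1 sample at a time gave 3 to 9 genes higher and 0 to 1 lower against vehicle, and 2 to 7 higher and 0 to 5 lower against FeAc. ATG2A against FeAc ranged from -0.169, a reversal without bortezomib plus FeAc replicate 2, to 0.449 without bortezomib plus FeAc replicate 1. The labels do not say whether samples with the same replicate number were made together. Their deviations correlated between -0.148 (vehicle and FeAc) and 0.186 (vehicle and bortezomib plus FeAc) across genes. Such correlations cannot decide whether some groups shared a batch. With the replicate block, 6 genes were higher and 1 lower against vehicle, and 6 higher and 1 lower against FeAc. A crossed replicate block with the FeAc numbers exchanged, chosen after seeing the data, called 9 higher and 1 lower, and 8 higher and 2 lower. With 2 samples a group, an exact permutation test of 1 gene could not go below p = 0.333, and the results rest on the spread shared across groups and genes. Depth is unknown, so a difference that was not called may have been missed.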
